A study of Homo sapiens with 45 samples.

Results

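The genes of DNA damage repair and of the checkpoint that answers it described here are 42 of 29159 genes counted in 3 neuroblastoma cell lines treated with palbociclib (PB), an inhibitor of the cell cycle kinases CDK4 and CDK6. The genes were listed by name and were found by their symbols in the deposited counts, where all 42 had a row. They fall into recombinase loading and strand exchange (12 genes), DNA end resection and the processing of joined molecules (5), the Fanconi pathway (10), mismatch repair (3), checkpoint kinases and their partners (6), end joining (4) and the PARP enzymes (2). SK-N-BE(2)C carries amplified *MYCN* and a loss on chromosome arm 1p, IMR-32 carries amplified *MYCN* and *MEIS1* and a loss on 1p, and SH-SY5Y carries mutant *ALK* with gains on 1q and 17q. Each established line was sequenced as a control, after 24 h with 1 μM PB and after a longer time with PB. The longer time was 5 days in SH-SY5Y and IMR-32 but 7 days in SK-N-BE(2)C, with 5 replicates in each of the 9 groups. Controls are called untreated below in the sense of without PB, and whether they received vehicle is not stated for these libraries. Controls were harvested together with the 24 h cultures, so the longer treatment also differs from them in time in culture, and 7 days against 5 days cannot be told apart from the line. Comparisons of both times with control share their control libraries.

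Cells repair a double-strand break either by end joining, in which the Ku proteins hold the ends until a ligase seals them, or by homologous recombination, in which the ends are resected and a recombinase filament copies the intact sister chromatid. Recombination and the Fanconi pathway, which unhooks crosslinks between DNA strands, serve mainly cells in S and G2 phase, whereas end joining works throughout the cell cycle. Mismatch repair follows the replication fork and corrects its errors, and the kinases ATR, ATM, CHEK1 and CHEK2 halt the cycle while damage remains.

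The libraries held 13459219 to 25441812 counts (median 18494528), so that 1 CPM, the unit of counts scaled to a common library total, corresponds to 18.5 reads at the median. Values below are CPM for levels and log2 fold changes ± standard error from edgeR's quasi-likelihood fit for differences, with SK-N-BE(2)C given first, IMR-32 next and SH-SY5Y last. A gene was called at a Benjamini-Hochberg adjusted p under 0.05, taken over all genes tested, and an absolute log2 fold change over 0.5. IMR-32 replicate 5 stood apart: among 41 of the genes it was the highest of the 5 controls in 35, the highest at 24 h in 31 and the highest at 5 days in 32. In SH-SY5Y at 5 days, replicate 1 was the lowest in 34 and replicate 5 the highest in 29. In SK-N-BE(2)C, replicates 3, 4 and 5 lay closer to each other than other pairs did in the controls and at 24 h (at most 3.18 chi-square per degree of freedom, against at least 7.05). At 7 days replicates 4 and 5 were close (5.60), but replicate 3 lay at 28.8 and 29.5 from them. In the controls and at 24 h these may be fewer than 3 independent cultures, which was not tested. Adrenergic neuroblast markers were present in every group, with 1 of 11, *TH*, under 1 CPM in SH-SY5Y. Their summed CPM was 3669 to 4391, 2238 to 3258 and 5128 to 6513 in the controls and 4962 to 5187, 3482 to 4206 and 7174 to 9159 at 24 h. At the longer time it was 4898 to 5387, 3244 to 3798 and 5493 to 7323. *MYCN* stood at 3325 to 4428 CPM in untreated SK-N-BE(2)C, at 1296 to 1776 in untreated IMR-32 and 4.98 to 8.16 in untreated SH-SY5Y. With PB *MYCN* stood at 4427 to 5100 and then 1861 to 2633 in SK-N-BE(2)C, 2144 to 2468 and then 1919 to 2218 in IMR-32, and 3.04 to 5.59 and then 3.44 to 13.3 in SH-SY5Y. The summed CPM of 10 mesenchymal markers was 622 to 857 in untreated SK-N-BE(2)C and 389 to 763 at 7 days. It was 454 to 1070.4 in untreated IMR-32 and 173 to 322 at 5 days, and 1280.3 to 1738 in untreated SH-SY5Y and 983 to 1097 at 5 days. The 4 Schwann markers together held at most 26.4 CPM in any library. Their part in the results was not tested. In these bulk samples, fewer cells that express a gene and less of its RNA per cell cannot be told apart.

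Promoter sequences were taken from RefSeq on GRCh38.p14, in windows of 250 bases before to 50 after each start site, for 37 of the 42 genes. *RAD54B*, *FANCI*, *NBN*, *XRCC5* and *PRKDC* had no window. Both strands were searched for E2F letters (TTTGGCGC, TTTCCCGC, TTTGCCGC or TTTCGCGC, which can overlap each other), for CHR letters (TTTGAA or TTCGAA) and for CCAAT. E2F letters stood in 11 of 56 windows, 19.6%, against 3.31% of all 35116 windows. CCAAT stood in 46.4% of windows against 34.6%, and CHR letters in 8.93% against 16.4%. By gene, 10 of the 37 had E2F letters: *EXO1*, *MSH6*, *MSH3*, *PMS2*, *FANCD2*, *FANCC*, *FANCA*, *TOPBP1*, *XRCC2* and *XRCC6*. At 24 h the median log2 fold change of the 10 was −1.02, −1.14 and −0.91, and that of the 26 tested without them was −0.88, −1.24 and −0.91. Over all genes tested that had a window it was −0.15, −0.11 and −0.14 with the letters and 0.03, 0.06 and 0.04 without them. The 250 bases before the start site are printed for *FANCA* and *FANCC*, which hold E2F letters and fell at 24 h, for *MSH3* and *PMS2*, which hold them and were not called, and for *RAD54L*, which lacks them and had the most negative mean response. Capitals mark E2F letters and, in *FANCC* alone, CHR letters near its first base. In *MSH3* a pair of matches on opposite strands overlap. A match describes the letters and is not evidence of binding. The regions are chr16:89816648-89816897, minus strand (*FANCA*), chr9:95317710-95317959, minus strand (*FANCC*, the first of its 2 windows), chr5:80654402-80654651, plus strand (*MSH3*), chr7:6009107-6009356, minus strand (*PMS2*, the first of 2) and chr1:46247438-46247687, plus strand (*RAD54L*, the first of 2), each written 5′ to 3′ along its gene.
FANCA: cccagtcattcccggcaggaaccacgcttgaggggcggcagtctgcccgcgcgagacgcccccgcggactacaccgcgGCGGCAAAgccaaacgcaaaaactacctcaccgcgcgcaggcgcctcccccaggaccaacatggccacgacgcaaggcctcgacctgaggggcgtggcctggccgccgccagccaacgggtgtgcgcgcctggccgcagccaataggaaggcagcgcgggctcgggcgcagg
FANCC: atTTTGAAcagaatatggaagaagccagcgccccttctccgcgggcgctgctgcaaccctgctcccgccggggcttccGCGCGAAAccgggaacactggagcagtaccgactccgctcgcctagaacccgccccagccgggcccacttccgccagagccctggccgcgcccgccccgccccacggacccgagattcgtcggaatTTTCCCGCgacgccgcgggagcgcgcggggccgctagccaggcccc
MSH3: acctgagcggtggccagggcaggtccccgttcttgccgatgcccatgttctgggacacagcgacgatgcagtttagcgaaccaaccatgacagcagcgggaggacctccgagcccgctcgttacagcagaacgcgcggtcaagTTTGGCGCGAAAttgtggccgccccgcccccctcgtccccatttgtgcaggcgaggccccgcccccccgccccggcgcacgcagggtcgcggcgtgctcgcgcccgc
PMS2: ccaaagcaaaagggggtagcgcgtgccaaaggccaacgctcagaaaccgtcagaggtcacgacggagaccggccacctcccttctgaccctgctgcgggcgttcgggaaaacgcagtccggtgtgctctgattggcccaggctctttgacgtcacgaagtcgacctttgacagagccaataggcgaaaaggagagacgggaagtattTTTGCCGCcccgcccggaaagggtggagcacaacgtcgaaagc
RAD54L: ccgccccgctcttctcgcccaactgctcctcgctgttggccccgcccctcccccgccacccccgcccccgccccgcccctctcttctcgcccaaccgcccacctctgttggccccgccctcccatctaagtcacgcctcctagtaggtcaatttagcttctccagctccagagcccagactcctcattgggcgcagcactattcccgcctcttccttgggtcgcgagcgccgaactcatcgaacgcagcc

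After 24 h of PB, 30 of the 41 genes with enough counts were called lower in each line and 0 were called higher. With unadjusted p under 0.05, 5, 2 and 1 were higher, and DESeq2 also called 0 higher. Over all genes tested, 10.6%, 10.5% and 11% were called lower and 10.9%, 7.87% and 10.5% higher. The median log2 fold change of the 41 was −0.88, −1.10 and −0.90, beside 0.02, 0.06 and 0.04 over all genes tested. Strand exchange and Fanconi genes, 22 of the 41, made up 19, 20 and 18 of the 30, and 27 genes were called lower in all 3 lines (of 12556 genes tested in every line, 5.81% were). *PALB2*, *RAD50*, *FANCF*, *MSH3*, *PMS2*, *ATM*, *ATR* and *LIG4* were called lower in no line. In CPM, all 5 treated libraries lay below all 5 controls for 31, 30 and 33 of the genes, against 18.1%, 13.8% and 18.1% of all genes. At the longer time 30, 23 and 30 genes were called lower, beside 22.3%, 15.5% and 17.3% of all genes. Only *LIG4* was called higher, in each line, beside 24.5%, 16.6% and 18.6% of all genes. The medians were −0.997, −0.55 and −0.79, beside 0.01, 0.003 and 0.01 over all genes. All treated libraries lay below all controls for 32, 25 and 31 genes, against 27%, 19.4% and 20% of all genes. In all 3 lines 21 genes were called lower (6.5% of all genes) and 1 higher (6.91%). Without replicate 5 in every group, IMR-32 had 30 genes lower at 24 h and 20 at 5 days. Without replicates 4 and 5 in every group, SK-N-BE(2)C had 30 and 31. *ATRIP*, the partner of ATR, had 0 to 7 reads per library, was not tested in any line, and shares 31.6% of its transcript with exons of *TREX1* on the same strand.

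**Figure D1:**
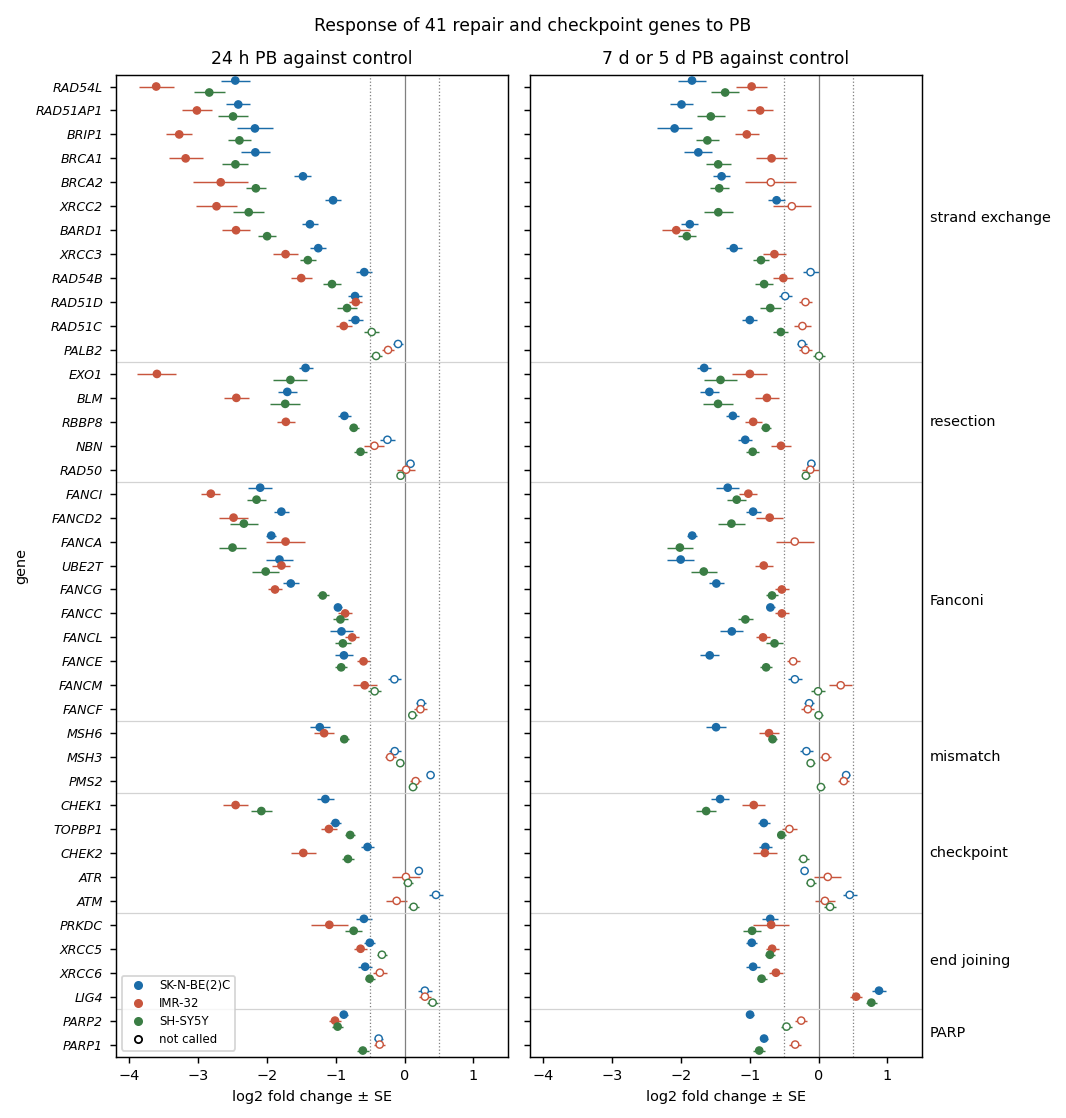
Log2 fold change ± standard error of the 41 genes tested (rows, by group) at 24 h (left) and at 7 or 5 days (right) against control, in 3 lines. Filled points were called and open points were not, dotted lines mark 0.5 either way, *RAD54L* in IMR-32 lies furthest to the left at 24 h, with *EXO1* in IMR-32 next to it, and *LIG4* is the only filled point right of 0, in the right panel.

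Among the genes of recombinase loading and strand exchange, 11, 11 and 10 of 12 were called lower at 24 h, with medians of −1.32, −2.56 and −2.08, and 9, 7 and 11 at the longer time, with medians of −1.32, −0.66 and −1.40. *RAD54L* (GRCh37 1:46712133-46744152, plus strand), a motor protein that drives the recombinase filament into the intact duplex, had the largest mean fall at 24 h. *RAD54L* in SK-N-BE(2)C stood at 39.9, 33.3, 34.3, 33.4 and 32.7 CPM in the controls, at 7.94, 8.88, 4.76, 4.96 and 5.34 after 24 h and at 13.5, 6.37, 7.78, 11.2 and 11.2 after 7 days. *RAD54L* in IMR-32 stood at 38.3, 44.1, 39.5, 39.7 and 51.4 CPM in the controls, at 2.40, 2.80, 2.13, 3.15 and 6.64 after 24 h and at 20.01, 17.3, 20.9, 22.4 and 28.6 after 5 days. *RAD54L* in SH-SY5Y stood at 59.3, 49.02, 59.1, 55.8 and 51.8 CPM in the controls, at 8.84, 5.76, 7.36, 9.29 and 7.28 after 24 h and at 11.03, 20.6, 25.1, 21.9 and 33.5 after 5 days. All treated libraries were lower than any control of their line at both times. The fold changes were −2.46 ± 0.21, −3.61 ± 0.25 and −2.84 ± 0.23 at 24 h, then −1.84 ± 0.20, −0.97 ± 0.22 and −1.36 ± 0.21 with longer PB (adjusted p up to 1.4e-07 and 0.0021), and 26.2% of its transcript lies under exons of *LRRC41* on the opposite strand, from which its reads cannot be told apart if strand was not used.

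*RAD51AP1* (GRCh37 12:4647964-4669213, plus strand) encodes a protein that helps the filament form its first joint with the partner duplex. *RAD51AP1* in SK-N-BE(2)C stood at 46.5, 51.7, 54.4, 53.4 and 54.9 CPM in the controls, at 11.5, 13.05, 7.84, 9.20 and 7.91 after 24 h and at 14.8, 10.9, 8.74, 17.1 and 16.1 after 7 days. *RAD51AP1* in IMR-32 stood at 35.6, 38.9, 43.5, 36.4 and 68.2 CPM in the controls, at 3.72, 5.76, 4.96, 4.50 and 7.77 after 24 h and at 22.1, 23.2, 25.1, 29.2 and 25.04 after 5 days. *RAD51AP1* in SH-SY5Y stood at 33.3, 29.9, 32.4, 28.5 and 36.5 CPM in the controls, at 6.29, 4.31, 5.99, 5.87 and 6.18 after 24 h and at 6.10, 7.92, 11.7, 13.3 and 17.6 after 5 days. Treated libraries again lay below every control, and IMR-32 control 5 was well above the other 4. The change at 24 h was −2.42 ± 0.18, −3.02 ± 0.21 and −2.49 ± 0.22 (adjusted p at most 1.3e-07), whereas later it was −1.99 ± 0.17, −0.85 ± 0.19 and −1.57 ± 0.21 (at most 0.002). *BRIP1* (GRCh37 17:59756500-59940920, minus strand) encodes the helicase that binds BRCA1. *BRIP1* in SK-N-BE(2)C stood at 49.2, 52.3, 47.4, 48.8 and 45.3 CPM in the controls, at 14.2, 14.4, 8.02, 9.65 and 8.29 after 24 h and at 15.9, 7.40, 6.47, 18.4 and 10.8 after 7 days. *BRIP1* in IMR-32 stood at 96.6, 109, 111, 93.1 and 158 CPM in the controls, at 10.2, 8.01, 10.9, 11.2 and 16.8 after 24 h and at 49.6, 46.3, 57.5, 64.6 and 59.4 after 5 days. *BRIP1* in SH-SY5Y stood at 90.2, 87.7, 70.95, 93.5 and 102 CPM in the controls, at 17.3, 17.6, 14.4, 18.1 and 17.3 after 24 h and at 19.3, 24.996, 29.7, 39.9 and 37.99 after 5 days. No treated library reached its controls, and in SK-N-BE(2)C the 2 treated groups overlapped. *BRIP1* changed by −2.18 ± 0.26, −3.28 ± 0.19 and −2.40 ± 0.17 at 24 h (adjusted p at most 7.7e-06) and by −2.09 ± 0.26, −1.05 ± 0.17 and −1.62 ± 0.16 later (at most 1.8e-04).

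*PALB2* (GRCh37 16:23614481-23652642, minus strand), which bridges BRCA1 to BRCA2, was the member of this group nearest to 0. *PALB2* in SK-N-BE(2)C stood at 27.2, 29.8, 30.8, 34.5 and 29.7 CPM in the controls, at 28.4, 29.2, 28.1, 28.7 and 30.7 after 24 h and at 21.8, 28.02, 27.2, 28.8 and 26.1 after 7 days. *PALB2* in IMR-32 stood at 25.9, 28.4, 30.05, 25.99 and 30.6 CPM in the controls, at 21.8, 20.7, 25.7, 21.4 and 26.1 after 24 h and at 20.8, 26.1, 24.6, 25.2 and 27.6 after 5 days. *PALB2* in SH-SY5Y stood at 27.01, 26.8, 22.3, 27.1 and 29.3 CPM in the controls, at 18.9, 20.7, 20.6, 19.9 and 20.2 after 24 h and at 32.9, 29.2, 27.9, 25.3 and 24.6 after 5 days. Treated libraries overlapped the controls except in SH-SY5Y at 24 h, where all 5 lay below. None of its comparisons was called (−0.10 ± 0.07, −0.24 ± 0.09 and −0.41 ± 0.08 at 24 h, −0.24 ± 0.07, −0.19 ± 0.09 and 0.01 ± 0.08 later). Its partners did change. *BRCA1*, which promotes resection and recombinase loading, was at −2.17, −3.18 and −2.46, and *BRCA2*, which loads the recombinase, at −1.48, −2.67 and −2.16 at 24 h, each called in every line. Later they were at −1.75, −0.68 and −1.46 and at −1.41, −0.70 and −1.45, with *BRCA2* in IMR-32 not called (adjusted p 0.13, and 0.039 with the replicate block) and *BRCA1* there not called without control replicate 5 (−0.49) or 5 day replicate 2 (−0.63). *BARD1*, the partner of BRCA1 in its ubiquitin ligase, was at −1.38, −2.45 and −1.9998 at 24 h and −1.87, −2.07 and −1.92 later. The recombinase paralogs *RAD51C*, *RAD51D*, *XRCC2* and *XRCC3* and the motor gene *RAD54B* ranged over −2.74 to −0.48 at 24 h, with *RAD51C* in SH-SY5Y (−0.48) the single value not called. At the longer time they ranged over −1.46 to −0.12. Exons of *KLC1* on the opposite strand cover 34.2% of *XRCC3*, and *RAD54B* shares 65.5% of its transcript with *FSBP* on its own strand.

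**Figure D2:**
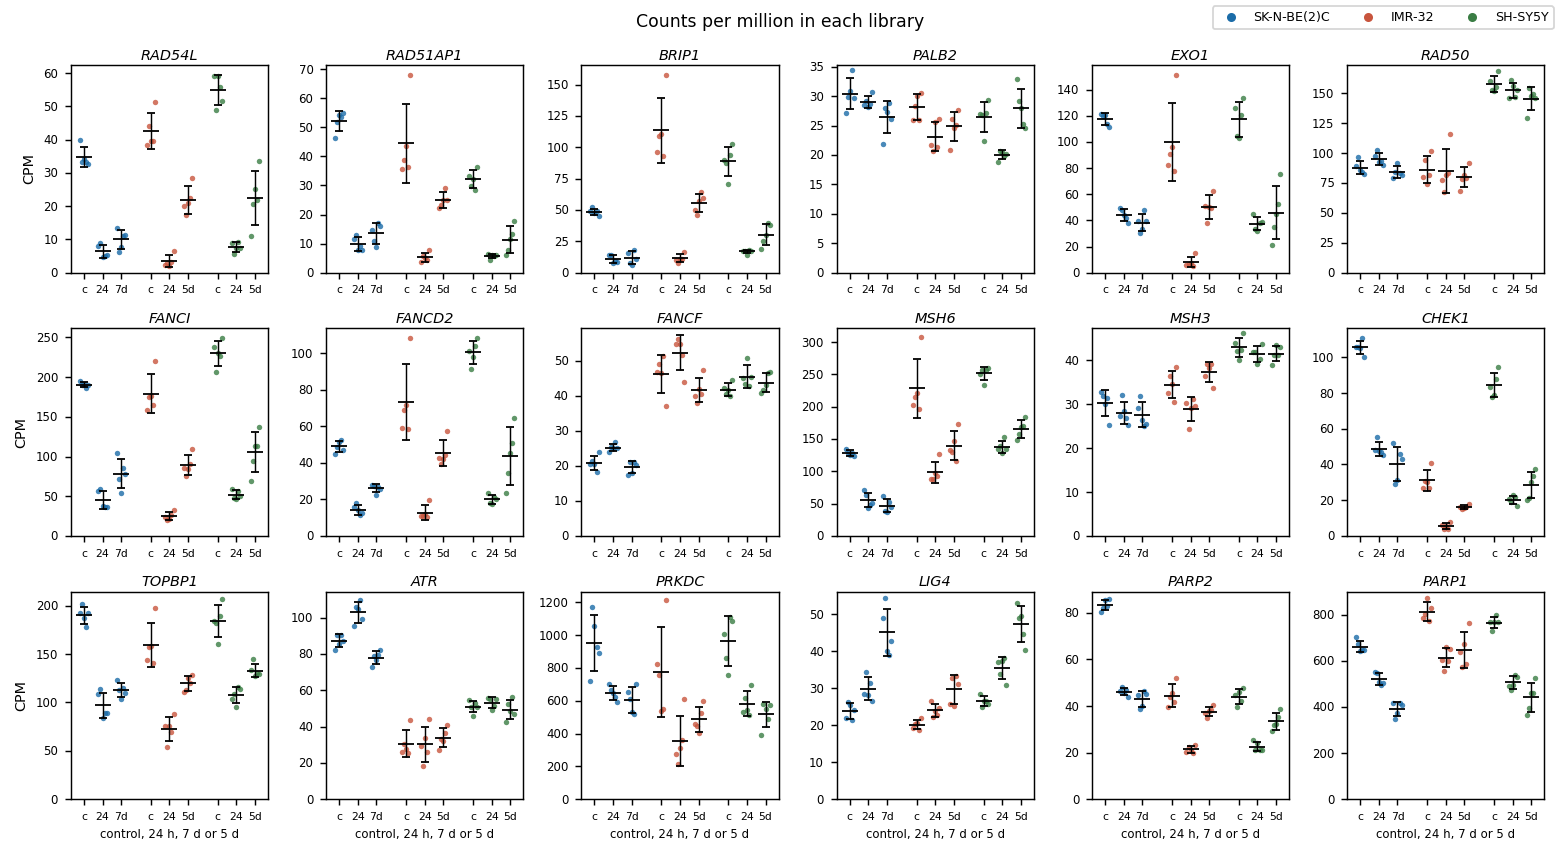
CPM (y axis, from 0) of 18 genes in every library, by line (colour) and by treatment (c is control, 24 is 24 h, 7d and 5d are days of PB), with the mean and SD of 5 libraries in black. The left point clouds of each colour are controls, and *RAD54L*, *RAD51AP1*, *BRIP1*, *EXO1*, *FANCI*, *FANCD2*, *MSH6* and *CHEK1* drop to separate levels at 24 h while *RAD50*, *MSH3* and *ATR* in IMR-32 and SH-SY5Y keep overlapping ones.

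Of the resection and joint processing genes, 3, 3 and 4 of 5 were called lower at 24 h and 4 in each line later. *EXO1* (GRCh37 1:242011269-242058450, plus strand) encodes an exonuclease that lengthens the resected strand and also acts in mismatch repair. *EXO1* in SK-N-BE(2)C stood at 121, 119.6, 121, 114 and 111 CPM in the controls, at 49.2, 47.6, 44.4, 41.5 and 38.2 after 24 h and at 39.4, 30.4, 33.5, 47.8 and 39.8 after 7 days. *EXO1* in IMR-32 stood at 82.01, 90.8, 96.2, 77.7 and 151 CPM in the controls, at 6.06, 6.61, 7.04, 5.37 and 15.1 after 24 h and at 50.8, 37.7, 50.5, 49.5 and 62.8 after 5 days. *EXO1* in SH-SY5Y stood at 126, 104, 103, 121 and 133 CPM in the controls, at 44.7, 33.4, 32.1, 37.9 and 38.8 after 24 h and at 20.995, 35.04, 44.998, 52.4 and 75.1 after 5 days. IMR-32 fell to the lowest levels of the 3 lines at 24 h, and by 5 days all its libraries lay above those at 24 h and below the controls. The changes were −1.44 ± 0.10, −3.60 ± 0.28 and −1.66 ± 0.25 at 24 h, then −1.66 ± 0.10, −0.9998 ± 0.25 and −1.43 ± 0.25 with longer PB (adjusted p up to 7.4e-05 and 0.0043). *RAD50* (GRCh37 5:131891711-131982041, plus strand), the ATPase of the complex that first binds a broken end, stayed nearest to 0. *RAD50* in SK-N-BE(2)C stood at 89.4, 96.5, 85.6, 84.5 and 82.9 CPM in the controls, at 97.6, 103, 92.5, 93.3 and 89.6 after 24 h and at 78.99, 84.2, 92.1, 83.04 and 81.9 after 7 days. *RAD50* in IMR-32 stood at 79.7, 93.98, 73.98, 81.9 and 101 CPM in the controls, at 77.7, 67.4, 81.4, 83.04 and 116 after 24 h and at 68.1, 78.5, 81.9, 79.1 and 91.9 after 5 days. *RAD50* in SH-SY5Y stood at 160.1, 153, 152, 155 and 168 CPM in the controls, at 146, 161, 156, 147 and 153 after 24 h and at 129, 155, 148, 149 and 146 after 5 days. Treated and control libraries overlapped in every comparison and none was called (lowest adjusted p 0.25 at 24 h and 0.0072 later). A same-strand locus covers 91.0% of the *RAD50* transcript. *NBN*, which carries ATM to the same complex, was at −0.25, −0.44 and −0.64 at 24 h, called in SH-SY5Y, and at −1.07, −0.55 and −0.96 later, called in every line (in IMR-32 −0.46 and not called without replicate 5). *BLM*, a helicase that dissolves joined molecules, was at −1.71, −2.45 and −1.74 and then −1.59, −0.75 and −1.46. *RBBP8*, which starts resection, was at −0.88, −1.73 and −0.74 and then −1.25, −0.95 and −0.77. Both were called lower in all 6 of these comparisons.

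In the Fanconi pathway 8, 9 and 8 of 10 genes were called lower at 24 h and 8, 6 and 8 later. *FANCI* (GRCh37 15:89787176-89860492, plus strand) and *FANCD2* encode the clamp that the core complex tags with ubiquitin at a crosslink. *FANCI* in SK-N-BE(2)C stood at 195, 190.0, 191, 186 and 191 CPM in the controls, at 56.9, 58.8, 37.2, 36.6 and 37.01 after 24 h and at 104, 71.5, 54.6, 85.1 and 77.5 after 7 days. *FANCI* in IMR-32 stood at 159, 174, 177, 165 and 221 CPM in the controls, at 23.7, 19.6, 21.9, 26.1 and 32.4 after 24 h and at 85.3, 75.8, 84.3, 90.2 and 109.6 after 5 days. *FANCI* in SH-SY5Y stood at 238, 207, 230.1, 226 and 249.8 CPM in the controls, at 58.8, 48.3, 46.5, 56.3 and 50.7 after 24 h and at 69.4, 94.1, 113, 114 and 137 after 5 days. Every treated library was below the controls, and the libraries at the longer time lay above those at 24 h in IMR-32 and SH-SY5Y. *FANCI* changed by −2.10 ± 0.17, −2.82 ± 0.14 and −2.15 ± 0.14 at 24 h (adjusted p at most 1.7e-07). At the longer time it was at −1.32 ± 0.17, −1.02 ± 0.13 and −1.19 ± 0.14 (at most 1.7e-05). *FANCD2* lies at GRCh37 3:10068054-10143616, plus strand. *FANCD2* in SK-N-BE(2)C stood at 44.9, 48.8, 51.5, 52.5 and 47.1 CPM in the controls, at 15.9, 18.3, 14.2, 11.3 and 12.3 after 24 h and at 28.1, 27.3, 22.2, 26.8 and 25.9 after 7 days. *FANCD2* in IMR-32 stood at 58.98, 68.7, 71.9, 58.5 and 109 CPM in the controls, at 10.7, 10.8, 12.2, 10.4 and 19.7 after 24 h and at 42.7, 39.4, 42.1, 44.4 and 57.4 after 5 days. *FANCD2* in SH-SY5Y stood at 101, 91.6, 98.1, 104 and 108 CPM in the controls, at 23.6, 18.1, 17.4, 21.2 and 20.001 after 24 h and at 23.5, 34.6, 45.3, 50.7 and 64.6 after 5 days. Every treated library was below its controls, and libraries at the longer time lay above those at 24 h in IMR-32 and SK-N-BE(2)C and overlapped them in SH-SY5Y. *FANCD2* changed by −1.79 ± 0.11, −2.49 ± 0.21 and −2.34 ± 0.21 at 24 h (adjusted p at most 3.0e-07) and stood at −0.95 ± 0.11, −0.71 ± 0.20 and −1.27 ± 0.20 against control later (at most 0.0068).

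*UBE2T*, the enzyme that supplies the ubiquitin, was at −1.82, −1.79 and −2.02 at 24 h and *FANCL*, the ligase subunit that attaches it, at −0.92, −0.76 and −0.90, all 6 and the 6 later values called. Core complex genes *FANCA*, *FANCC*, *FANCE* and *FANCG* ranged over −2.50 to −0.60 at 24 h, all called lower. They ranged over −2.02 to −0.35 later, when *FANCA* (−0.35) and *FANCE* (−0.37) were not called in IMR-32. *FANCC* there was at −0.53 ± 0.11, and at −0.46 ± 0.07 and under the limit without replicate 5. Opposite-strand exons cover 27.4% of *FANCA* and 27.3% of *FANCL*. *FANCF* (GRCh37 11:22644079-22647369, minus strand), an adaptor of the same core complex, was the member nearest to 0. *FANCF* in SK-N-BE(2)C stood at 20.4, 21.5, 20.5, 18.2 and 23.8 CPM in the controls, at 23.9, 25.2, 25.1, 26.7 and 25.1 after 24 h and at 17.4, 21.2, 18.1, 21.04 and 20.3 after 7 days. *FANCF* in IMR-32 stood at 46.7, 48.9, 46.5, 51.4 and 36.9 CPM in the controls, at 54.7, 56.1, 54.8, 51.7 and 43.97 after 24 h and at 39.96, 38.04, 42.02, 40.6 and 47.4 after 5 days. *FANCF* in SH-SY5Y stood at 42.3, 40.3, 41.7, 39.8 and 44.4 CPM in the controls, at 44.98, 43.2, 50.8, 42.8 and 45.3 after 24 h and at 40.7, 41.7, 43.1, 46.5 and 46.6 after 5 days. Its 24 h libraries lay wholly above the controls in SK-N-BE(2)C and overlapped them in the other lines. No comparison with control was called (0.24 ± 0.07, 0.23 ± 0.10 and 0.11 ± 0.06 at 24 h and −0.14 ± 0.07, −0.16 ± 0.10 and −0.0002 ± 0.06 later). *FANCM*, which anchors the core complex to DNA, was at −0.15, −0.58 and −0.44 at 24 h, called in IMR-32 alone, where treated and control libraries overlapped.

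Mismatch repair is represented by 3 genes, of which only *MSH6* was called, lower in every line at both times. *MSH6* (GRCh37 2:47922669-48037202, plus strand) encodes the subunit that reads single mispaired bases. *MSH6* in SK-N-BE(2)C stood at 134, 129, 126, 128 and 124 CPM in the controls, at 71.3, 63.9, 43.8, 48.1 and 51.1 after 24 h and at 61.3, 38.9, 37.5, 52.3 and 45.1 after 7 days. *MSH6* in IMR-32 stood at 203, 215, 221, 195.6 and 307 CPM in the controls, at 88.4, 88.3, 96.6, 92.9 and 127 after 24 h and at 132, 129.9, 147, 116 and 173 after 5 days. *MSH6* in SH-SY5Y stood at 251, 256, 234, 257 and 260.1 CPM in the controls, at 134.9, 139, 128, 153 and 134 after 24 h and at 148, 158, 169, 170.3 and 184 after 5 days. Treated libraries of each line lay below its controls. The changes were −1.23 ± 0.15, −1.17 ± 0.15 and −0.88 ± 0.07 at 24 h (adjusted p at most 1.6e-05) and −1.49 ± 0.15, −0.72 ± 0.14 and −0.67 ± 0.07 later (at most 7.3e-04), and 12.4% of the transcript lies under *FBXO11* on the opposite strand. *MSH3* (GRCh37 5:79950471-80172634, plus strand), which takes the place of MSH6 to read larger loops, was nearest to 0. *MSH3* in SK-N-BE(2)C stood at 32.8, 31.9, 30.04, 31.5 and 25.3 CPM in the controls, at 27.3, 32.2, 28.5, 26.8 and 25.3 after 24 h and at 29.2, 31.9, 26.4, 25.1 and 25.4 after 7 days. *MSH3* in IMR-32 stood at 32.5, 36.4, 34.6, 30.5 and 38.4 CPM in the controls, at 30.4, 24.3, 29.2, 31.2 and 29.7 after 24 h and at 36.4, 39.2, 38.3, 39.2 and 33.7 after 5 days. *MSH3* in SH-SY5Y stood at 43.9, 42.2, 40.2, 42.3 and 46.2 CPM in the controls, at 42.01, 41.98, 39.1, 40.4 and 43.7 after 24 h and at 39.02, 41.2, 43.5, 41.2 and 43.005 after 5 days. Treated and control libraries overlapped in every line. The fitted changes of *MSH3*, −0.14 ± 0.09, −0.21 ± 0.08 and −0.06 ± 0.06 at 24 h and −0.18 ± 0.09, 0.10 ± 0.08 and −0.12 ± 0.06 later, were not called. *PMS2*, the endonuclease of the system, was at 0.38, 0.16 and 0.12 and 0.40, 0.37 and 0.03, below the limit of 0.5 throughout. Its treated libraries lay above every control in SK-N-BE(2)C at both times and in IMR-32 at 5 days, and 14 annotated pseudogenes carry its name, between which its reads may be split.

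Of the 5 checkpoint genes tested, 3 in each line were called lower at 24 h and 3, 2 and 2 later. The effectors *CHEK1* and *CHEK2* and the activator *TOPBP1* fell, and the apical kinases were not called. *CHEK1* (GRCh37 11:125495058-125546150, plus strand) encodes the kinase through which ATR stops the cycle. *CHEK1* in SK-N-BE(2)C stood at 106, 106, 105, 111 and 100.4 CPM in the controls, at 47.9, 55.2, 47.3, 47.2 and 45.2 after 24 h and at 51.8, 29.3, 31.3, 45.999 and 43.3 after 7 days. *CHEK1* in IMR-32 stood at 26.9, 31.01, 30.4, 26.6 and 40.8 CPM in the controls, at 6.11, 4.06, 5.55, 3.91 and 8.02 after 24 h and at 16.3, 15.3, 15.9, 16.001 and 18.1 after 5 days. *CHEK1* in SH-SY5Y stood at 83.2, 77.8, 79.1, 88.1 and 94.4 CPM in the controls, at 20.4, 18.8, 22.9, 21.8 and 16.6 after 24 h and at 20.4, 21.4, 30.03, 33.4 and 37.3 after 5 days. Every treated library was below its controls, and IMR-32 started from the lowest level. *CHEK1* changed by −1.15 ± 0.13, −2.46 ± 0.18 and −2.08 ± 0.15 at 24 h (adjusted p at most 2.5e-06) and by −1.43 ± 0.13, −0.94 ± 0.17 and −1.64 ± 0.15 later (at most 2.6e-04), with 18.2% of its transcript under an opposite-strand locus. *TOPBP1* (GRCh37 3:133317019-133381224, minus strand) encodes the scaffold that switches ATR on. *TOPBP1* in SK-N-BE(2)C stood at 193, 202, 187, 178 and 192 CPM in the controls, at 109, 114, 83.7, 89.5 and 88.8 after 24 h and at 123, 112, 103, 115 and 109.8 after 7 days. *TOPBP1* in IMR-32 stood at 144, 157, 158, 141 and 197 CPM in the controls, at 75.6, 53.4, 75.2, 69.4 and 87.9 after 24 h and at 111, 113, 126, 119.8 and 129 after 5 days. *TOPBP1* in SH-SY5Y stood at 184, 182, 160.3, 189.6 and 207 CPM in the controls, at 104, 109, 94.9, 116 and 114 after 24 h and at 133, 145, 128, 130.1 and 129 after 5 days. Every treated library lay below its controls. *TOPBP1* was at −1.005 ± 0.08, −1.10 ± 0.12 and −0.79 ± 0.07 at 24 h (adjusted p up to 2.4e-06), then −0.80 ± 0.08, −0.42 ± 0.11 and −0.54 ± 0.07 later, called in SK-N-BE(2)C and SH-SY5Y. In SH-SY5Y that call was lost without control replicate 5 (−0.50) and with library size as the scale (−0.47).

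*ATR* (GRCh37 3:142167849-142297575, minus strand), the kinase that senses stalled forks, was the checkpoint gene nearest to 0. *ATR* in SK-N-BE(2)C stood at 82.2, 90.7, 85.7, 90.3 and 87.3 CPM in the controls, at 95.3, 106, 105, 109.7 and 99.2 after 24 h and at 72.7, 78.6, 76.6, 79.6 and 82.4 after 7 days. *ATR* in IMR-32 stood at 25.7, 30.1, 27.7, 25.7 and 43.8 CPM in the controls, at 29.04, 18.4, 33.8, 25.9 and 43.97 after 24 h and at 26.8, 33.3, 31.8, 36.7 and 40.7 after 5 days. *ATR* in SH-SY5Y stood at 54.5, 50.5, 46.03, 52.9 and 50.7 CPM in the controls, at 55.5, 54.97, 48.8, 51.3 and 54.98 after 24 h and at 42.7, 52.5, 48.3, 56.1 and 47.1 after 5 days. Groups overlapped in IMR-32 and SH-SY5Y, and the 24 h libraries of SK-N-BE(2)C lay above its controls. No *ATR* comparison with control was called (0.21 ± 0.05, 0.02 ± 0.20 and 0.05 ± 0.07 at 24 h and −0.20 ± 0.05, 0.13 ± 0.20 and −0.11 ± 0.07 later). *ATM*, the kinase that answers double-strand breaks, was at 0.46, −0.12 and 0.13 at 24 h and 0.45, 0.09 and 0.17 later, none called. Treated *ATM* libraries lay above every control in SK-N-BE(2)C at both times and overlapped the controls in the other lines. *CHEK2*, its effector, was at −0.54, −1.47 and −0.82 at 24 h, called in every line, and at −0.77, −0.78 and −0.22 later, called in IMR-32 and SK-N-BE(2)C. Its name is shared by 8 annotated pseudogenes.

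Of the 4 end joining genes, 3, 2 and 2 were called lower at 24 h and 3 in each line later, when *LIG4* was called higher. *PRKDC* (GRCh37 8:48685672-48872738, minus strand) encodes the catalytic subunit of the kinase that Ku recruits to an end. *PRKDC* in SK-N-BE(2)C stood at 722, 1172, 1053, 930.0 and 888 CPM in the controls, at 704, 667, 647, 621 and 593 after 24 h and at 655, 609, 532, 516 and 699.9 after 7 days. *PRKDC* in IMR-32 stood at 823, 756, 539, 548 and 1214 CPM in the controls, at 277, 214, 312, 359 and 611 after 24 h and at 458, 447, 405, 524 and 596 after 5 days. *PRKDC* in SH-SY5Y stood at 1005, 858, 758, 1111 and 1087 CPM in the controls, at 533, 618, 544, 515 and 696 after 24 h and at 394, 581, 547, 488 and 575 after 5 days. Spread among controls was wide in IMR-32 (539 to 1214 CPM), where groups overlapped, and in the other lines treated libraries lay below the controls. The changes were −0.59 ± 0.11, −1.09 ± 0.26 and −0.74 ± 0.13 at 24 h (adjusted p at most 0.0054) and −0.70 ± 0.11, −0.69 ± 0.26 and −0.97 ± 0.13 later (at most 0.039). The IMR-32 call at 5 days was lost when any of 7 single libraries was left out or with no filter on low counts (−0.71, adjusted p 0.075), and stood at −0.46 (adjusted p 0.12) without control replicate 5. *XRCC5* and *XRCC6*, the Ku subunits, were at −0.51, −0.64 and −0.33 and −0.57, −0.36 and −0.51 at 24 h, each called in 2 of 3 lines. At the longer time they were at −0.97, −0.68 and −0.71 and −0.95, −0.62 and −0.83, called in all.

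*LIG4* (GRCh37 13:108859787-108870716, minus strand), the ligase that seals the joined ends, was both the member of its group nearest to 0 at 24 h and the sole gene called higher. *LIG4* in SK-N-BE(2)C stood at 21.9, 26.2, 25.4, 21.5 and 24.1 CPM in the controls, at 28.4, 34.5, 28.3, 31.3 and 26.7 after 24 h and at 49.1, 54.4, 40.1, 39.1 and 42.9 after 7 days. *LIG4* in IMR-32 stood at 19.2, 20.4, 20.5, 18.6 and 22.01 CPM in the controls, at 26.4, 22.2, 23.8, 22.7 and 24.7 after 24 h and at 25.8, 32.9, 25.2, 33.4 and 31.2 after 5 days. *LIG4* in SH-SY5Y stood at 28.6, 24.9, 26.6, 26.6 and 25.9 CPM in the controls, at 37.1, 33.9, 37.3, 38.1 and 30.8 after 24 h and at 53.2, 49.04, 49.5, 44.8 and 40.4 after 5 days. Every treated library of each line lay above every control at both times. At 24 h the changes were 0.29 ± 0.10, 0.30 ± 0.09 and 0.41 ± 0.08, with adjusted p at most 0.023 but under the fold change limit. They were 0.88 ± 0.10, 0.54 ± 0.09 and 0.77 ± 0.07 at the longer time (adjusted p up to 1.6e-04), with mean CPM ± SD of 5 libraries going from 23.8 ± 2.10 to 45.1 ± 6.45 (SK-N-BE(2)C), 20.2 ± 1.30 to 29.7 ± 3.94 (IMR-32) and 26.5 ± 1.34 to 47.4 ± 4.91 (SH-SY5Y). With a fold change limit of 1, *LIG4* was called in no line.

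The enzymes PARP1 and PARP2 bind breaks and mark them with chains of ADP-ribose. *PARP2* (GRCh37 14:20811774-20826063, plus strand) had the larger fall at 24 h. *PARP2* in SK-N-BE(2)C stood at 80.2, 82.3, 85.5, 83.1 and 85.8 CPM in the controls, at 46.5, 48.1, 45.7, 46.7 and 43.8 after 24 h and at 44.8, 38.7, 39.8, 46.6 and 45.3 after 7 days. *PARP2* in IMR-32 stood at 39.4, 43.98, 45.6, 41.5 and 52.1 CPM in the controls, at 20.3, 22.2, 21.2, 19.9 and 23.4 after 24 h and at 37.1, 34.7, 37.7, 38.1 and 40.6 after 5 days. *PARP2* in SH-SY5Y stood at 44.8, 39.4, 45.8, 42.2 and 47.7 CPM in the controls, at 25.2, 21.2, 24.2, 21.04 and 21.3 after 24 h and at 29.2, 31.7, 32.2, 35.1 and 38.7 after 5 days. Treated libraries lay below the controls in every line at 24 h, and at the longer time they did so in SK-N-BE(2)C and SH-SY5Y but overlapped the controls in IMR-32. *PARP2* was at −0.88 ± 0.06, −1.01 ± 0.09 and −0.97 ± 0.08 at 24 h (adjusted p up to 2.6e-07), then −0.997 ± 0.06, −0.25 ± 0.09 and −0.47 ± 0.08 later, called then in SK-N-BE(2)C. *PARP1* (GRCh37 1:226547911-226595855, minus strand), the more abundant of them per length of transcript, was nearest to 0 at 24 h. *PARP1* in SK-N-BE(2)C stood at 701, 671, 641, 646 and 646 CPM in the controls, at 550.4, 545, 506, 495 and 504 after 24 h and at 418, 349, 372, 416 and 409 after 7 days. *PARP1* in IMR-32 stood at 787, 803, 873, 772 and 831 CPM in the controls, at 605, 557, 659, 597 and 649 after 24 h and at 636, 573, 673, 587 and 765 after 5 days. *PARP1* in SH-SY5Y stood at 766, 730.3, 767, 797 and 766 CPM in the controls, at 488, 475, 497, 539 and 531 after 24 h and at 363, 396, 461, 459 and 526 after 5 days. All treated libraries of *PARP1* were below their controls, and in SK-N-BE(2)C all 7 day libraries were below those at 24 h. It was at −0.38 ± 0.06, −0.36 ± 0.08 and −0.61 ± 0.09 at 24 h, called in SH-SY5Y, and at −0.79 ± 0.06, −0.34 ± 0.08 and −0.86 ± 0.09 later, called in SK-N-BE(2)C and SH-SY5Y.

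Between 24 h and the longer time with PB some of the genes came back. In IMR-32, 23 of 41 were called higher at 5 days than at 24 h and 0 lower, where 10.8% and 8.86% of all genes were. SH-SY5Y had 12 higher and 0 lower, beside 10.5% and 6.23%, and SK-N-BE(2)C had 4 higher and 2 lower, beside 17.5% and 14.4%. Libraries at the longer time lay wholly above those at 24 h for 3, 24 and 12 genes, against 19.1%, 14.1% and 15.8% of all genes. They lay wholly below for 9, 0 and 1 genes, against 2992 of 14055, 1335 of 14293 and 1299 of 14547 of all genes. The 9 in SK-N-BE(2)C were *ATR*, *BARD1*, *FANCE*, *FANCF*, *NBN*, *PARP1*, *RBBP8*, *XRCC5* and *XRCC6*. The median change of the 41 was −0.11, 0.68 and 0.26, beside 0.01, −0.001 and 0.004 over all genes. Unadjusted p under 0.05 gave 14, 2 and 6 lower, and DESeq2 also called 0 lower in the latter pair of lines. Whether the return differs between lines was not tested. *RAD54L*, *FANCD2* and *FANCI* were called higher in all 3 lines, as were 1.92% of all genes. *RAD54L* rose by 0.62 ± 0.21, 2.64 ± 0.25 and 1.48 ± 0.23, *FANCD2* by 0.84 ± 0.11, 1.78 ± 0.20 and 1.07 ± 0.20 and *FANCI* by 0.78 ± 0.17, 1.80 ± 0.14 and 0.96 ± 0.14 (adjusted p at most 0.018, 8.5e-04 and 0.0011). In SK-N-BE(2)C the first and the last of these overlapped between the times, and without replicates 4 and 5 they stood at 0.33 ± 0.30 (adjusted p 0.41) and 0.57 ± 0.24 (0.084). *RAD54L* there was also lost without replicate 1 at 7 days (0.48, adjusted p 0.052) and with no filter on low counts (0.58, adjusted p 0.052).

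The largest returns in IMR-32 were those of *RAD54L*, *EXO1* (2.601 ± 0.27), *BRCA1* (2.50 ± 0.24), *XRCC2* (2.35 ± 0.30) and *BRIP1* (2.23 ± 0.18). Genes called lower at 24 h stood then at a median of 44.7%, 29.3% and 41.1% of their control mean, and at the longer time at 42.2%, 62.5% and 51.9%. *RAD54L* stood lowest at 24 h in each line, at 18.4%, 8.04% and 14.02% of control, with *EXO1* next to it in IMR-32 (8.07%). *BARD1* in IMR-32 stood at 17.8% and then 23.998% of control, a difference between the times of 0.38 ± 0.21 that was not called (adjusted p 0.16). In SK-N-BE(2)C *NBN* (−0.82 ± 0.11) and *FANCE* (−0.70 ± 0.14) fell after 24 h and *LIG4* rose further (0.58 ± 0.10). The SK-N-BE(2)C counts rest on single libraries: 8 genes were called higher without replicate 2 at 24 h and 4 lower without replicate 1 at 7 days. Without replicates 4 and 5 they were 2 higher and 6 lower. IMR-32 without replicate 5 had 23 higher and 1 lower. SH-SY5Y had 15 higher without replicate 1 at 5 days and 9 without replicate 5.

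**Figure D3:**
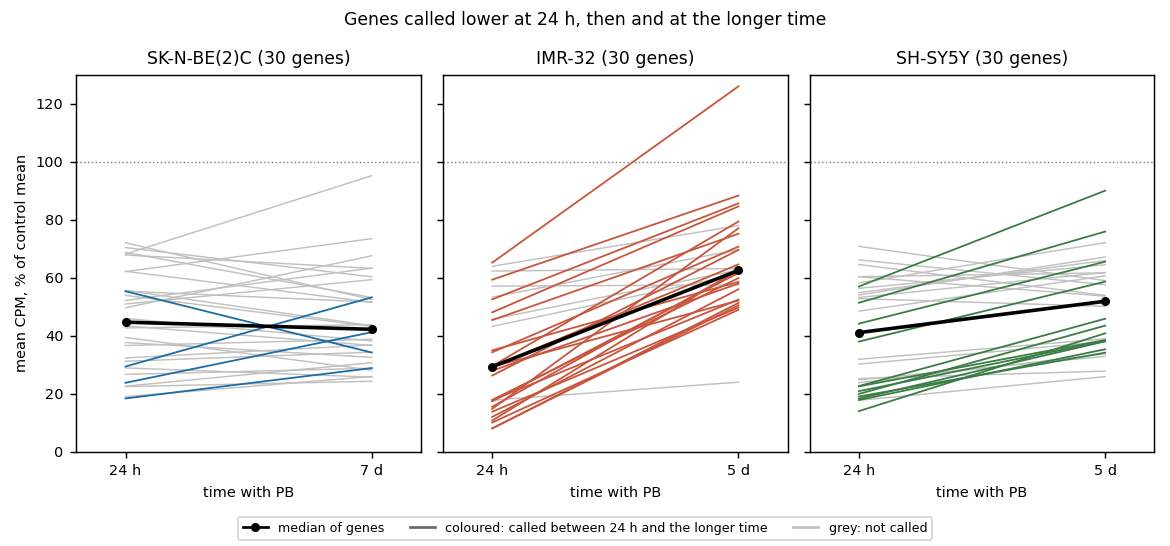
Mean CPM as a percentage of the control mean (y axis) at 24 h and at 7 or 5 days (x axis) for the 30 genes called lower at 24 h in each line, 1 thin line per gene, with the median in black. Coloured lines changed by call between the times, and the median is 44.7% and then 42.2% for SK-N-BE(2)C, 29.3% and then 62.5% for IMR-32, 41.1% and then 51.9% for SH-SY5Y.

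The difference of the responses was tested in a fit of all 45 libraries. At 24 h the response of 13 of 41 genes differed between IMR-32 and SK-N-BE(2)C, each with the lower fold change in IMR-32 (4.49% of all genes differed either way). Between SH-SY5Y and SK-N-BE(2)C 2 differed, *CHEK1* and *XRCC2*, each more negative in SH-SY5Y (2.04% of all genes). Between SH-SY5Y and IMR-32 4 differed, *EXO1*, *CHEK2*, *FANCG* and *RBBP8*, each less negative in SH-SY5Y (3.07%). The 5 genes with the largest differences had them between IMR-32 and SK-N-BE(2)C. *EXO1* differed by −2.17 ± 0.32 (adjusted p 1.6e-05), *XRCC2* by −1.70 ± 0.32 (5.5e-04) and *CHEK1* by −1.31 ± 0.22 (1.5e-04). *BRCA2* differed by −1.21 ± 0.35 (0.029) and *RAD54L* by −1.16 ± 0.33 (0.025).

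At the longer time 14 of 41 genes differed between IMR-32 and SK-N-BE(2)C, beside 23.9% of all genes, and each of the 14 had the higher fold change in IMR-32. Of these, *BRCA1*, *BRIP1* and *RAD54L* were also among the 13 at 24 h. *FANCM* was the single one above control in IMR-32 (0.32, against −0.35 in SK-N-BE(2)C). Between SH-SY5Y and SK-N-BE(2)C 9 of 41 differed, beside 21.2% of all genes, 7 of them with the higher fold change in SH-SY5Y. Between SH-SY5Y and IMR-32 5 of 41 differed, beside 20.8% of all genes, 4 of them with the lower fold change in SH-SY5Y. *FANCA* had the largest difference, −1.62 ± 0.29 in SH-SY5Y relative to IMR-32 (adjusted p 3.5e-05). In IMR-32 relative to SK-N-BE(2)C, *FANCE* differed by 1.19 ± 0.15 (7.8e-08), *UBE2T* by 1.18 ± 0.26 (4.3e-04), *RAD51AP1* by 1.11 ± 0.28 (0.002) and *BRCA1* by 1.04 ± 0.30 (0.0062). With the replicate number as a block, SH-SY5Y and IMR-32 differed in 8 of 41 genes at 24 h, beside 926 of 16282 genes in all, and in 10 later, beside 3893. Without IMR-32 replicate 5 they differed in 8 at 24 h, beside 708 of 16420, and in 11 later, beside 3943. SH-SY5Y and SK-N-BE(2)C then differed in 4 at 24 h, beside 542.

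Untreated, the lines differed in the level of some of these genes, a smaller share than over all genes. In the controls 16 of 41 genes differed between IMR-32 and SK-N-BE(2)C, 18 between SH-SY5Y and SK-N-BE(2)C and 14 between SH-SY5Y and IMR-32, beside 62.1%, 57.5% and 54.2% of all genes. Per kilobase of transcript, the Ku genes *XRCC6* (330.2, 263 and 123 CPM) and *XRCC5* (227, 197 and 198), *PARP1* (166, 204 and 192) and *UBE2T* (113, 120.0 and 116) led the 42 genes in each line. *RAD51D* (2.03, 1.62 and 1.99), with a canonical transcript of 9966 bases, stood near the foot above *ATRIP*. In plain CPM it was at 20.3, 16.2 and 19.8, above *FANCL* (11.2) in SK-N-BE(2)C and *FANCM* (10.96) in SH-SY5Y. In IMR-32 only *ATRIP* was lower in CPM. *XRCC6* was lower in SH-SY5Y than in SK-N-BE(2)C by a log2 difference of −1.62 ± 0.10 (adjusted p 2.0e-18), and 5 pseudogenes carry its name. *FANCL* exceeded its SK-N-BE(2)C level both in IMR-32 (1.96 ± 0.14) and SH-SY5Y (1.60 ± 0.13). *CHEK1* was lower in IMR-32 than in SK-N-BE(2)C (−1.78 ± 0.15), at 31.2 ± 5.74 against 106 ± 3.71 CPM, as were *ATR* (−1.53 ± 0.13) and *ATM* (−1.25 ± 0.12). *FANCM* was lower in SH-SY5Y than in SK-N-BE(2)C (−2.09 ± 0.13). *NBN* was higher in IMR-32 than in SK-N-BE(2)C (1.09 ± 0.12). The genes of this paragraph were picked for the size of their differences after the values were seen.

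Other repair genes, listed from general knowledge, are given for comparison. Of 42, 41 and 42 further recombination and Fanconi genes tested, 23, 23 and 21 were called lower at 24 h and 1, 1 and 0 higher. The examples from here on were chosen after their values were seen. *MND1*, which acts with the meiotic recombinase, was at −2.85 ± 0.20, −2.57 ± 0.19 and −3.66 ± 0.36 at 24 h, *POLQ*, the polymerase of an error-prone end joining route, at −1.86, −3.15 and −2.26, and *USP1*, which takes ubiquitin off FANCD2, at −1.80, −1.99 and −1.85. The scaffold gene *WDR48*, partner of USP1, was at 0.23, 0.07 and 0.18. Of 13 further checkpoint genes 8, 9 and 8 were called lower and 0 higher, among them *CLSPN*, which passes the signal from ATR to CHEK1 (−3.31 ± 0.38, −3.98 ± 0.25 and −2.75 ± 0.20). Of 15 further end joining genes 5, 3 and 4 were lower and 2, 0 and 1 higher at 24 h. The fill-in polymerase gene *POLL* was at 0.59, 0.47 and 0.53 at 24 h. Of 4 further mismatch repair genes tested 2 were lower in each line, *PCNA* and *LIG1*, both of the replication fork.

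Base and nucleotide excision repair genes formed the last repair list. Of 31, 32 and 32 such genes tested, 5, 4 and 2 were called lower at 24 h and 1, 3 and 3 higher, beside 10.6%, 10.5% and 11% lower and 10.9%, 7.87% and 10.5% higher over all genes, with medians of −0.03, 0.15 and 0.04. *NEIL3*, a glycosylase that also acts on crosslinks at forks, was the largest fall among them (−3.24 ± 0.29, −3.36 ± 0.23 and −3.67 ± 0.33). *UNG*, which removes uracil, was at −1.18, −1.40 and −0.84 and *PARP3* at 0.54, 0.55 and 0.56. By comparison, all 18 replication origin and fork genes were called lower at 24 h in each line (medians −1.58, −2.79 and −2.09) and all 15 mitotic genes (medians −2.46, −2.58 and −2.88). Between 24 h and the longer time 1, 18 and 12 of the replication genes and 2, 15 and 15 of the mitotic genes were called higher. Strand exchange medians at 24 h (−1.32, −2.56 and −2.08) lay beside those of replication, and end joining medians (−0.54, −0.50 and −0.42) nearer to 0. Differences between lists were not tested.

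**Figure D4:**
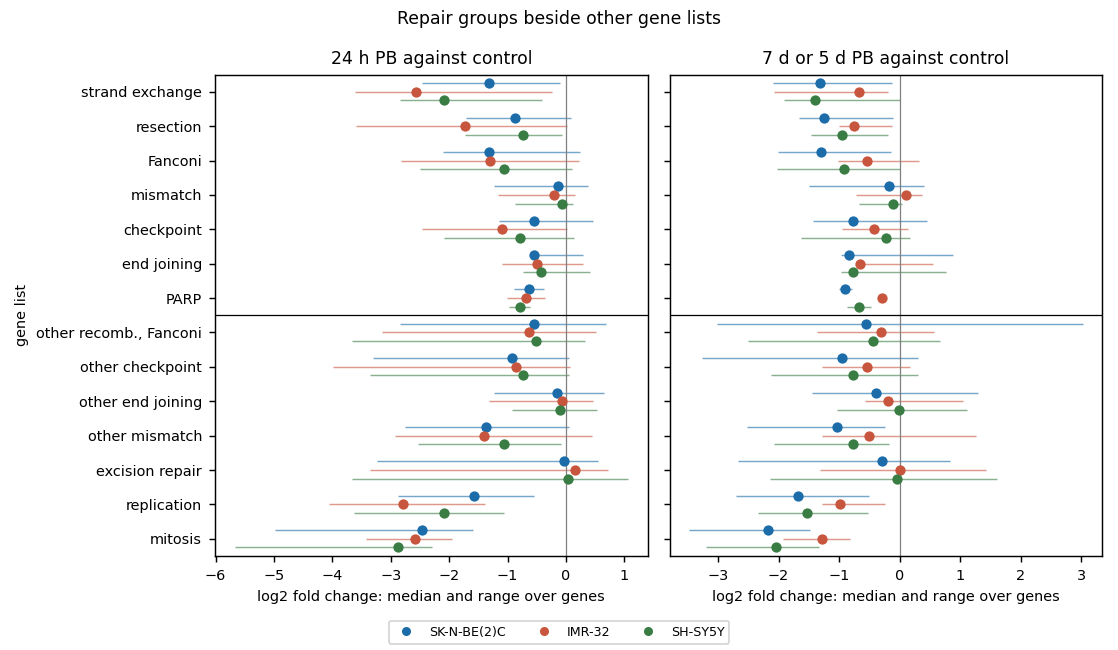
Median (point) and range (line) of the log2 fold change over the tested genes of each list, at 24 h (left) and 7 or 5 days (right) against control, by line. The 7 groups of the 42 genes stand above the black line, and excision repair medians lie at −0.03, 0.15 and 0.04 at 24 h while replication medians lie at −1.58, −2.79 and −2.09.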

How the data were processed

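RNA-seq libraries of 45 cultures were analysed, 5 in each of 9 groups. Replicates were plated independently from different passages according to the study's methods. The deposited counts are whole reads per gene, which the authors made from polyA, strand-specific, paired-end libraries by trimming with Trim Galore 0.6.4 and aligning to hg19 with STAR, listed as 2.6.1d in the submitters' processing notes. The strand setting of the counting is not stated in the sources used here, and overlaps between strands are named beside the genes they touch. The authors' CPM and DESeq2 1.32.0 tables hold the same libraries scaled and their fold changes with p-values. The deposited CPM were read only to compare them with the CPM computed here (largest difference 4.7e-11), and the fold changes were not used.

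Counts were scaled by TMM, filtered with edgeR's filterByExpr (minimum count 10, minimum total 15, proportion 0.7) and fitted by edgeR 4.0.16 (robust quasi-likelihood, R 4.3.3, limma 3.58.1), all 15 libraries of a line together, which left 14055, 14293 and 14547 genes. Benjamini-Hochberg adjustment ran over all of them. Differences between lines came from 1 fit of 45 libraries and 16282 genes. The procedure was tested on simulated counts. CPM values are counts scaled by the library total alone, and a level per kilobase divides them by the canonical transcript's length in the GRCh37 annotation. Depth ran from 13459219 to 25441812 counts. Alternatives were RLE factors, library size alone, no filter, DESeq2 1.42.0, other fold change limits, a replicate block, 1 fit for all lines, leaving out single libraries and, chosen after seeing the data, SK-N-BE(2)C without replicates 4 and 5.

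Values in every library are given, in each group, for the member with the most negative mean change at 24 h among those called (3 in the strand exchange group, 2 in the Fanconi and checkpoint groups), for the member nearest to 0, and for members called higher in 2 or more lines. Some genomic features of the lines and 1 gene list are not reported here. The members and lists were chosen with earlier results of these data known. Deviations of same-numbered libraries correlated positively in every pair of groups within a line, though weakly in places. The lowest correlation was 0.0482 for SK-N-BE(2)C (24 h with 7 days). It was 0.114 for IMR-32 and 0.109 for SH-SY5Y (each control with 5 days). Replicate numbers that matched best with their own number were counted for control with 24 h, control with the longer time and 24 h with the longer time. Of 5 numbers, 3, 2 and 2 did so for SK-N-BE(2)C, 3, 4 and 1 for IMR-32, and 5, 5 and 3 for SH-SY5Y. Matching by number was thus incomplete in each line.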

Additional observations from a re-analysis of the deposited data

Results flagged for a closer look

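Of 162 sets of 5 libraries (18 genes in 9 groups), 16 had a library far from the other 4 by Dixon's criterion, which chance alone gives in about 1 of 20. IMR-32 replicate 5 was the far library in 12 of them, always as the highest. Among its controls it held 68.2 CPM of *RAD51AP1*, 158 of *BRIP1*, 151 of *EXO1*, 221 of *FANCI*, 109 of *FANCD2*, 307 of *MSH6* and 43.8 of *ATR*. At 24 h it held 6.64 CPM of *RAD54L* (2.13 to 3.15 in the others), 15.1 of *EXO1* (5.37 to 7.04), 19.7 of *FANCD2* and 127 of *MSH6*, and at 5 days 57.4 of *FANCD2*. The other far libraries were SK-N-BE(2)C control replicate 1 for *RAD54L* (39.9 CPM, others 32.7 to 34.3), SK-N-BE(2)C replicate 2 at 24 h for *CHEK1* (55.2), SH-SY5Y replicate 2 at 24 h for *RAD51AP1* (4.31, others 5.87 to 6.29) and SH-SY5Y replicate 3 at 24 h for *BRIP1* (14.4, others 17.3 to 18.1).

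The response to PB differed by test for 13 of 41 genes at 24 h and 14 later between IMR-32 and SK-N-BE(2)C, beside 4.49% and 23.9% of all genes. Between SH-SY5Y and SK-N-BE(2)C 2 and 9 differed, beside 2.04% and 21.2%. Between SH-SY5Y and IMR-32 4 and 5 differed, beside 3.07% and 20.8%. In IMR-32 relative to SK-N-BE(2)C at 24 h, the log2 difference was −2.17 for *EXO1*, −1.70 for *XRCC2*, −1.31 for *CHEK1*, −1.21 for *BRCA2* and −1.16 for *RAD54L*. At the longer time it was 1.19 for *FANCE*, 1.18 for *UBE2T*, 1.11 for *RAD51AP1* and 1.04 for *BRCA1*, and −1.62 for *FANCA* in SH-SY5Y relative to IMR-32. Each of these 10 differences was also called without IMR-32 replicate 5 and with the replicate block.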

How the results depend on the processing

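RLE factors, library size alone, DESeq2 and the fit of all lines kept every count of called genes within a line within 1.5 times, and the first pair of these did so for the differences between lines. With a fold change limit of 1 the genes called lower at 24 h were 18 (SK-N-BE(2)C) with 17 (SH-SY5Y), those lower at the longer time were 3 in IMR-32 and 15 in SH-SY5Y, those higher at that time were 0 in each line, and between the times 0 were lower and 0 higher in SK-N-BE(2)C, 14 higher in IMR-32 and 2 higher in SH-SY5Y. Differences of response then numbered 8 and 6 (IMR-32 and SK-N-BE(2)C, 24 h and longer), 1 and 0 (SH-SY5Y and SK-N-BE(2)C) and 2 and 2 (SH-SY5Y and IMR-32), and of control level 10, 4 and 3. With no limit, 5, 1 and 1 were higher at 24 h, 3 (SK-N-BE(2)C) with 2 (IMR-32) higher later, and between the times 12 were lower and 9 higher in SK-N-BE(2)C, 1 lower in IMR-32 and 4 lower in SH-SY5Y, with 9 late differences between SH-SY5Y and IMR-32 and 26 and 22 control differences (IMR-32 from SK-N-BE(2)C and SH-SY5Y from IMR-32). With no filter, 4 were lower between the times in SK-N-BE(2)C. The cause was not tested.

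The replicate block gave 8 and 10 differing responses between SH-SY5Y and IMR-32, and added *BARD1* in SK-N-BE(2)C between the times (−0.51, adjusted p 0.0016 in edgeR's test) and *BRCA2* in IMR-32 at 5 days (−0.61 ± 0.23, adjusted p 0.039, against −0.70 and 0.13). It changed no other call within a line.

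Without IMR-32 replicate 5 in every group, 1 gene was lower between the times there, the late calls of *FANCC* (−0.46 against −0.53), *NBN* (−0.46 against −0.55) and *RAD54B* (−0.48 against −0.51) slipped under the limit of 0.5, and differences were 4 (SH-SY5Y and SK-N-BE(2)C, 24 h), 8 and 11 (SH-SY5Y and IMR-32). Without SK-N-BE(2)C replicates 4 and 5, 6 were lower and 2 higher between the times. Leaving out 1 library at a time, lower calls at 24 h ranged over 29 to 30, 29 to 31 and 29 to 31, with 0 to 1 higher in SK-N-BE(2)C and a median of −1.27 to −1.004 (log2) in IMR-32 (without its replicate 5 at 24 h or in the controls), and later over 30 to 31, 17 to 24 and 29 to 31. Between the times 2 to 4 were lower and 4 to 8 higher in SK-N-BE(2)C, 22 to 25 higher in IMR-32 and 9 to 15 higher in SH-SY5Y. Of 4680 values of the genes given by library or by a named difference, under all alternatives, 46 changed their call, 0 called values changed sign and 44 values not called did. *BRCA1* in IMR-32 at 5 days was lost without control replicate 5 (−0.49) or 5 day replicate 2 (−0.63).

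*ATRIP* had at most 7 reads per library, and the cause was not tested. The p-values measure the spread between cultures of 1 line each, and not between tumours.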

Other observations

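Excision repair genes at the longer time were called lower in 11, 5 and 2 and higher in 5, 3 and 2 of 31, 32 and 32 tested (SK-N-BE(2)C first, IMR-32 next, SH-SY5Y last), beside 22.3%, 15.5% and 17.3% lower and 24.5%, 16.6% and 18.6% higher over all genes. Differences between the lines in these counts were not tested.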
